A study of Homo sapiens with 12 samples.

Results

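CKB, RPS6KA2 and CD93 are 3 protein-coding genes of ordinary length whose RNA level differed strongly between GATA2-/- and wildtype (WT) hematopoietic progenitor cells (HPCs). They were picked by symbol from the 56266 genes of the deposited files, and the list was selected on that measured difference in HPCs. All 3 passed the filter on low values (TPM, the transcript share scaled to a fixed library total, had to reach 1 in 2 or more libraries), as did 21543 genes in all. The HPC genotype difference is therefore given below as a description with no test. Tests are given for 3 other comparisons. These are GATA2-/- against WT in hemogenic endothelium (HE), GATA2-/- HE against GATA2-/- human embryonic stem cells (hESCs), and HPC against HE averaged over both genotypes. The first 2 use no HPC values in their differences. The last uses the mean of the same HPC libraries that chose the genes. All 3 take their standard error from 1 fit that includes these libraries, and the choice may have favoured genes with a small error. Their p-values for the 3 genes may therefore be too low.

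The RNA-Seq libraries came from H1, an established human ESC line, and from its GATA2-/- derivative, in which a loxP-flanked neomycin cassette under the PGK promoter was placed in exon 3 of GATA2 with the help of TALENs. The 10 libraries formed 5 groups of 2, namely undifferentiated GATA2-/- hESCs, HE of both genotypes, sorted as CD34+CD31+CD43- after co-culture on OP9 mouse stromal cells until day 8, and HPC of both genotypes, sorted as CD34+CD43+ from day 9 cultures. The WT hESC samples were not analysed here, so no genotype comparison was made in hESCs. The GATA2-/- line was 1 expanded clone, so the genotype and that clone cannot be told apart. No source used here says whether replicates were separate cultures, and all p-values measure only the spread between these libraries.

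CKB encodes the brain-type cytosolic creatine kinase, which moves phosphate between ATP and creatine and buffers the energy supply of cells with changing demand. RPS6KA2 encodes RSK3, a member of the p90 ribosomal S6 kinase (RSK) family of serine/threonine kinases that act downstream of ERK. CD93 encodes a transmembrane glycoprotein of the group XIV C-type lectin family, found on endothelial cells and on some myeloid cells and blood progenitors, where it takes part in adhesion. In the endothelial to hematopoietic transition (EHT), HE cells lose endothelial features and become HPCs.

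In the annotation of GRCh37, the build of the files, CKB (ENSG00000166165) lies on chromosome 14 from 103986004 to 103989170, RPS6KA2 (ENSG00000071242) on chromosome 6 from 166822852 to 167319939, and CD93 (ENSG00000125810) on chromosome 20 from 23059997 to 23066961, all on the minus strand. Their exons cover 2383, 8251 and 6681 bases. RefSeq promoter windows on GRCh38.p14 were matched for CKB, with 1 start site, and for RPS6KA2, with 3. CD93 was not matched. The 250 bases before the CKB start and before the RPS6KA2 start of transcript RPS6KA2-201 are shown because, among protein-coding genes with at least 200 exonic bases, these 2 gave the strongest fall and rise relative to their errors in HPCs, and capitals mark the letters TATAAA and CCAAT (read ATTGG on the opposite strand).
CKB, chr14:103522831-103523080, minus strand: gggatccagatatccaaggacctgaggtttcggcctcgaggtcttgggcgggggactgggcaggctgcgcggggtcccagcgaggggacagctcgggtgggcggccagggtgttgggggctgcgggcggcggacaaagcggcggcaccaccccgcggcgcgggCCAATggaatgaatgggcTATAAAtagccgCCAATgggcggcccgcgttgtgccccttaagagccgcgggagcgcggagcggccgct
RPS6KA2, chr6:166627252-166627501, minus strand: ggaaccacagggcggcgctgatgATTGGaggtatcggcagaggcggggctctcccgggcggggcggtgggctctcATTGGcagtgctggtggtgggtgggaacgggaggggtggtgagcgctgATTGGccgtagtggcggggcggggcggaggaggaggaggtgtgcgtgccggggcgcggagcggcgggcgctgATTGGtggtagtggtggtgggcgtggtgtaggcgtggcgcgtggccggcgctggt

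The CKB window held TATAAA, which ended 63 bases before the start, and CCAAT at 2 places, and 70.8% of its bases were G or C. The RPS6KA2 window shown held CCAAT at 4 places, all on the opposite strand, and no TATAAA, with 72.4% G or C. The other RPS6KA2 windows had 61.2% and 43.6% G or C. In them CCAAT ended 96 and 133 bases before the start, respectively. The window shown was thus the richest of the RPS6KA2 windows in CCAAT and in G or C, and it does not stand for the others. No match overlapped another. Across 35116 RefSeq windows of 250 bases, TATAAA stood in 10.7% and CCAAT in 32.0% on either strand. The letters GATAA, a form of the sequence that GATA factors bind, stood in 20.4% of all windows and in none of the 4 windows of CKB and RPS6KA2. Other forms and the shorter letters GATA were not counted, and GATA does occur in both windows shown, on either strand. These letter matches are a description of the windows. No binding data were analysed here, and a gene-level TPM does not show which RPS6KA2 start was used.

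TPM is scaled to the same total in every library, so read depth is unknown and precision could be judged only from the replicates. GATA2 itself, the targeted gene, had a TPM of 107 and 78.0 in WT HE, 111 and 94.1 in GATA2-/- HE, 290.1 and 204 in WT HPC, and 112 and 83.8 in GATA2-/- HPC. This gene-level value also counts RNA from outside the targeted exon, so it does not check the genotype labels. All 15 endothelial markers were higher in GATA2-/- HE than in GATA2-/- hESC (against 13.9% of all genes) and lower in HPC than in HE (against 11.9%) in limma. SPN (CD43) had a TPM of 1.76 to 8.81 in HE and 98.0 to 107.9 in HPC. Genes of the mitochondrial genome made up 8.66% and 9.61% of the TPM in WT HPC and 15.1% and 14.8% in GATA2-/- HPC.

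CKB was the most highly expressed of the 3 genes and was lower in GATA2-/- HPCs. Its TPM was 1209.7 and 923 in WT HPC and 334 and 234 in GATA2-/- HPC. The higher GATA2-/- library stayed far below the lower WT library. The WT mean was 3.75 times the GATA2-/- mean, and the difference of log2(TPM + 1), GATA2-/- minus WT, was −1.91 (standard error 0.19). Of 14725 tested protein-coding genes with at least 200 exonic bases, it had the 24th largest fall. It was placed 1 among falls when each was divided by its standard error, which is part of what selected it. In bulk samples, fewer cells of a type and less RNA per cell cannot be told apart.

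In HE, a comparison that the choice did not use, CKB was also lower in both GATA2-/- libraries. Its TPM was 271 and 286 in WT HE and 117 and 109.8 in GATA2-/- HE. The groups did not overlap, and the WT mean was 2.45 times the GATA2-/- mean. The difference was −1.29 (standard error 0.19), with an unadjusted p of 0.000103 and an adjusted p of 0.133 in limma over all 21543 genes, so it did not pass the threshold of 0.05. Over 17 alternative settings the adjusted p lay between 0.0689 and 0.547. In this comparison 4 genes (0.0186% of those tested) passed the threshold, 1045 genes had an unadjusted p under 0.05, and in 16.5% of genes both GATA2-/- libraries lay below both WT libraries. CKB had the 132nd largest fall of the 14725 protein-coding genes by size and the fifth by size over standard error. Its standard error came from the shared fit over all libraries and was the same in HPC. There, size over standard error was part of what selected CKB. The p-values and the place by size over standard error in HE are therefore not free of that choice. The summed erythroid, megakaryocyte, and monocyte and granulocyte markers were also lower in GATA2-/- HE. The sum of the blood markers, most of it CD34, was higher. The 12 erythroid markers summed to a TPM of 209 and 133 in WT HE and 71.9 and 47.3 in GATA2-/- HE, and the 8 megakaryocyte markers to 153 and 126 against 79.4 and 47.8. The 15 monocyte and granulocyte markers summed to 123 and 105.04 in WT HE and 89.8 and 79.2 in GATA2-/- HE. The 10 blood markers summed to 1067 and 949 in WT HE and 1467 and 1164 in GATA2-/- HE, although their median difference was −0.53. CD34, used to sort these cells, had a TPM of 641 and 605 in WT HE and 1060 and 925 in GATA2-/- HE. Both GATA2-/- libraries lay above both WT libraries for 1 of the 10, CD34, against 13.8% of all genes. They lay below for 4, namely RUNX1, MYB, GFI1 and VAV1, against 16.5%. The part of these cell types in the CKB difference was not tested.

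CKB changed strongly between stages. In GATA2-/- hESCs its TPM was 772 and 788, higher than in any HE library. The GATA2-/- HE minus GATA2-/- hESC difference was −2.77 (standard error 0.19, adjusted p = 1.93e-05 in limma). The HPC minus HE difference, averaged over genotypes, was 1.61 (standard error 0.14, adjusted p = 8.09e-05). Within WT the HPC minus HE difference was 1.92 and within GATA2-/- it was 1.29, values that contain the difference used to choose the gene and were not tested. The order of the group means was WT HPC, GATA2-/- hESC, GATA2-/- HPC, WT HE and GATA2-/- HE. In this order GATA2-/- HPC, with a mean TPM of 284, and WT HE, with 278, overlapped, and each other pair of neighbouring groups did not.

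RPS6KA2 was higher in GATA2-/- HPCs. Its TPM was 3.68 and 2.37 in WT HPC and 18.5 and 16.0 in GATA2-/- HPC. Both WT values were far below both GATA2-/- values, and the GATA2-/- mean was 5.71 times the WT mean. The difference was 2.20 (standard error 0.24) on the log2(TPM + 1) scale, which understates the change of a gene as low as this one in WT HPC. With 0.1 added in place of 1 it was 2.50. It was the 13th largest rise of the 14725 protein-coding genes by size and was placed 1 by size over standard error.

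WT HE held RPS6KA2 at a TPM of 28.3 and 29.6 and GATA2-/- HE at 34.1 and 37.7. Both GATA2-/- libraries were higher, which held for 13.8% of all genes tested. The difference of 0.30 (standard error 0.24) did not pass the threshold in limma (adjusted p = 1). In GATA2-/- hESCs the TPM was 11.2 and 13.6, lower than in GATA2-/- HE, and the rise to HE was 1.47 (standard error 0.24, adjusted p = 0.00197). Averaged over genotypes, the HPC minus HE difference was −1.97 (standard error 0.17, adjusted p = 9.04e-05), and each HPC library lay below each HE library. Not tested by genotype, it was −2.91 in WT and −1.02 in GATA2-/-. The order of the means was GATA2-/- HE, WT HE, GATA2-/- HPC, GATA2-/- hESC and WT HPC, with no overlap between neighbouring groups. How many of all genes keep HPC and HE, or neighbouring groups, apart in this way was not counted, here or for CKB and CD93. The 2 HE groups did not differ past the threshold, as given above, and the other neighbours in this order that involve HPC were not tested.

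CD93 was higher in GATA2-/- HPCs, with the widest replicate spread of the 3 genes. Its TPM was 9.71 and 3.14 in WT HPC and 22.3 and 12.3 in GATA2-/- HPC. The WT replicates differed 3.09-fold from each other and the GATA2-/- replicates 1.82-fold. The GATA2-/- mean was 2.70 times the WT mean, and the difference was 1.40 (standard error 0.45). Without WT HPC replicate 1 it was 2.09, and without WT HPC replicate 2 it was 0.72. By size it was the 108th largest rise of the 14725 protein-coding genes, and by size over standard error it was placed 231.

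WT HE held CD93 at a TPM of 110.4 and 135 and GATA2-/- HE at 114 and 164. The groups overlapped, and the difference of 0.16 (standard error 0.45, adjusted p = 1 in limma) was smaller than the replicate spread. Without GATA2-/- HE replicate 2 its sign turned, to −0.10. Both GATA2-/- hESC libraries are listed at 0 for CD93, so no fold is given. The gene was higher in GATA2-/- HE in the test on log2(TPM + 1) (adjusted p = 1.24e-05). The HPC minus HE difference was −3.59 (standard error 0.32, adjusted p = 9.90e-05), and the HE mean TPM over both genotypes, 131, was 11.04 times the HPC mean, 11.9. By genotype the untested HPC minus HE difference was −4.21 in WT and −2.97 in GATA2-/-. The order of the means was GATA2-/- HE, WT HE, GATA2-/- HPC, WT HPC and GATA2-/- hESC. The 2 HE groups overlapped, and the other neighbours did not.

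In the HPC genotype comparison 13 genes (0.0603% of those tested) passed the threshold, 2 of which, CKB and RPS6KA2, were protein-coding with at least 200 exonic bases. CD93 was not among the 13. Both GATA2-/- libraries were higher than both WT libraries in 19.7% of genes and lower in 13.0%. Since this comparison chose the genes, nothing is read from these counts. All 3 genes passed the threshold in GATA2-/- HE against GATA2-/- hESC, as did 30.0% of all genes tested, and in HPC against HE, as did 20.4%.

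The sample labels number the replicates, and in the file headers replicate 2 of each HE and HPC group carries an extra tag whose meaning is not stated. In HPC all 3 genes were lower in replicate 2 than in replicate 1 in both genotypes. Taken by replicate number, the GATA2-/- minus WT difference in HPC was −1.85 and −1.98 for CKB, 2.06 and 2.34 for RPS6KA2, and 1.12 and 1.68 for CD93. In HE it was −1.20 and −1.37 for CKB, 0.26 and 0.34 for RPS6KA2, and 0.05 and 0.28 for CD93. The HPC direction is part of what chose the genes, so nothing is read from its agreement between numbers. In HE the sign was the same in both numbers for each gene. Same-numbered libraries were not taken as pairs, however, and the CD93 groups overlapped in HE.

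The share of mitochondrial RNA moved with genotype in HPC. With the mitochondrial genes removed and TPM rescaled, a setting chosen after seeing the data, the HPC differences were −1.82 for CKB, 2.32 for RPS6KA2 and 1.51 for CD93. Erythroid markers differed between replicates more than between genotypes. Their summed TPM over 12 genes was 5626 and 15079 in WT HPC and 8589 and 16859 in GATA2-/- HPC. The 15 monocyte and granulocyte markers, of which 1 is at 0 in every library, summed to 682 and 749 in WT HPC and 443 and 566 in GATA2-/- HPC, and the 8 megakaryocyte markers to 1679 and 1872 against 1150.1 and 1599.8. The part of these cell types in the differences of CKB, RPS6KA2 and CD93 was not tested.

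RPS6KA2 and CD93 shared with endothelial markers a fall from HE to HPC. The 15 endothelial markers were all lower in HPC than in HE in limma, against 11.9% of all genes, with a median difference of −2.54 against 0.01 over all genes. In HPC they summed to a TPM of 1410 and 1059 in WT libraries and 1346 and 1206 in GATA2-/- libraries, so the genotypes overlapped. None of the 15 passed the threshold by genotype in limma or had an unadjusted p under 0.05. Their differences went both ways, from −0.35 for ENG to 0.77 for EMCN. Per 1000 TPM of these markers, RPS6KA2 was at 2.61 and 2.24 in WT HPC and at 13.8 and 13.3 in GATA2-/- HPC. The corresponding CD93 values were 6.88 and 2.96 in WT HPC and 16.6 and 10.2 in GATA2-/- HPC. The GATA2-/- to WT ratio of means on this scale was 5.58 for RPS6KA2 and 2.72 for CD93, close to the ratios of the TPM themselves. The part of endothelial cells in the RPS6KA2 and CD93 differences was not tested.

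Among pluripotency, mesenchymal and blood markers, none passed the threshold in HPC by genotype (8, 9 and 10 tested, with 0, 0 and 2 at an unadjusted p under 0.05). None of the 12 erythroid, 8 megakaryocyte or 10 tested monocyte and granulocyte markers passed either, with 0, 2 and 1 at an unadjusted p under 0.05. In limma, 1925 of all 21543 genes had an unadjusted p under 0.05 in HPC by genotype, and 1045 did in HE. In HE by genotype only 1 marker gene of all these lists passed, PF4, a platelet chemokine, which was lower in GATA2-/-. At an unadjusted p under 0.05 stood 7 of 12 erythroid (median −1.50), 5 of 8 megakaryocyte (median −0.61), 4 of 10 blood, 2 of 10 monocyte and granulocyte, 1 of 9 mesenchymal, 1 of 15 endothelial and 0 of 8 pluripotency markers in HE, and the median over all genes was −0.01. All 8 pluripotency markers were lower in GATA2-/- HE than in GATA2-/- hESC, against 16.1% of all genes, and 11 of 12 erythroid, 7 of 8 megakaryocyte and 8 of 10 monocyte and granulocyte markers were higher in HPC than in HE, against 8.52% of all genes.

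Close relatives of the 3 genes did not pass the threshold in either genotype comparison. CKB made up most of the creatine kinase RNA, at 90.8% to 99.5% of the summed TPM of CKB, CKM, CKMT1A, CKMT1B and CKMT2 in every library. The muscle-type gene CKM stayed at a TPM of 2.31 or less in each library and the mitochondrial CKMT2 at 2.63 or less. The mitochondrial creatine kinases CKMT1A and CKMT1B are near-identical copies whose short reads may be split between them, and both are given as uncertain. CKMT1A had a TPM of 0 in both WT HPC libraries and 4.10 and 1.76 in GATA2-/- HPC, while CKMT1B had 5.53 and 1.73 in WT HPC and 1.26 and 0 in GATA2-/- HPC. The processed pseudogene CKBP1 is listed at 0 in all 10 libraries.

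Other genes of the creatine system were low beside CKB. GATM and GAMT, the enzymes of creatine synthesis, and SLC6A8, the creatine transporter, had mean TPM of 7.12, 44.2 and 10.9 in WT HPC and 8.27, 30.3 and 10.1 in GATA2-/- HPC. None of the 3 passed the threshold by genotype. In HE, GATM was low, at 3.13 and 1.43 in WT and 0 and 0.65 in GATA2-/-. Its difference there was −1.30, with an unadjusted p of 0.00971 and an adjusted p of 0.793 in limma. GAMT and SLC6A8 differed by −0.01 and −0.56 in HE. From GATA2-/- hESC to GATA2-/- HE, 5 of the 8 creatine genes fell in limma, against 16.1% of all genes, and the list median was −3.10 against −0.02. These were CKMT1A (−4.63), CKMT1B (−4.33), SLC6A8 (−3.50), GATM (−3.42) and CKB. From HE to HPC, 3 of 8 rose, against 8.52% of all genes, which were GATM (2.10), CKB and GAMT (0.79), with a list median of 0.60 against 0.01.

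RPS6KA2 was a small part of the RSK family RNA in WT HPC. It made up 3.66% and 3.37% of the summed TPM of RPS6KA1, RPS6KA2, RPS6KA3 and RPS6KA6 in WT HPC, and 19.3% and 18.5% in GATA2-/- HPC. In HE its share was 31.0% and 40.3% in WT and 42.7% and 46.6% in GATA2-/-. The summed TPM of the family was 100.7 and 70.3 in WT HPC and 95.7 and 86.6 in GATA2-/- HPC, and these ranges overlapped. RPS6KA1 (RSK1) was the main RSK gene of HPCs at a mean TPM of 67.1 in WT and 53.3 in GATA2-/- (difference −0.30, standard error 0.24, adjusted p = 0.737). It rose from HE to HPC by 0.81 (adjusted p = 0.0104) while RPS6KA2 fell. RPS6KA3 (RSK2) had mean TPM of 14.8 and 19.3 in WT and GATA2-/- HPC and 18.7 and 10.9 in WT and GATA2-/- HE. RPS6KA6 (RSK4) was higher in GATA2-/- hESC (mean 6.27) than in GATA2-/- HE (0.69; difference −2.14, adjusted p = 0.00933). The MSK genes RPS6KA4 and RPS6KA5, kinases of related structure, passed in no comparison. RPS6KA5 was at 2.76 and 2.05 in WT HE and 0.33 and 0.47 in GATA2-/- HE, with an unadjusted p of 0.0274 and an adjusted p of 0.937 in limma.

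**Figure D1:**
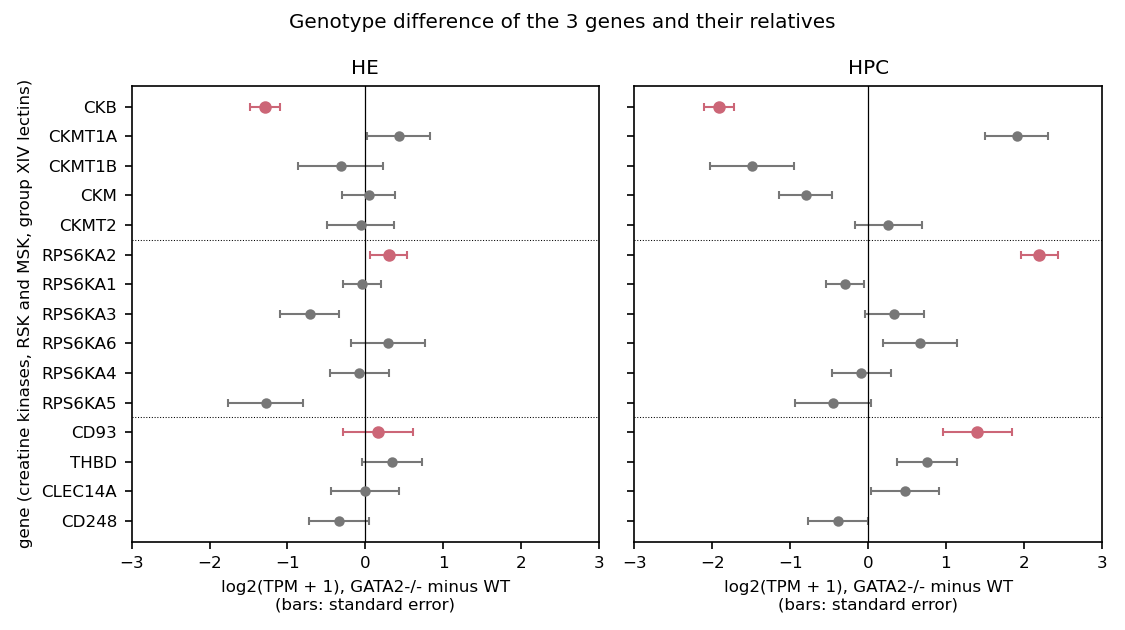
Difference of log2(TPM + 1), GATA2-/- minus WT, with its standard error, in HE (left) and HPC (right) for the 3 genes (red) and their relatives (grey), each from 2 against 2 libraries. CKB lies at −1.29 in HE and −1.91 in HPC and RPS6KA2 at 0.30 and 2.20, while no relative passed the threshold.

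Around RPS6KA2, ERK signalling genes showed no call by genotype. Of 17 genes of the ERK cascade and 15 genes known to respond to ERK, none passed the threshold in HE or in HPC. In limma, 3 and 4 of them had an unadjusted p under 0.05 in HPC and 1 and 2 in HE. Over all 21543 genes tested, 1925 did so in HPC and 1045 in HE. The HPC medians of the ERK lists were 0.18 and 0.00 against 0.05 over all genes. Between stages many of these genes passed the threshold. From GATA2-/- hESC to GATA2-/- HE, 7 cascade genes rose and none fell, and 8 response genes rose and 1 fell, against 13.9% of all genes rising. The cascade genes that differed most were PEA15 (1.65), SOS2 (1.51), MAPK3 (1.10) and HRAS (0.95), and the response genes EGR1 (3.34), CCND1 (3.18), DUSP5 (3.01) and PHLDA1 (2.31). From HE to HPC, 5 cascade genes fell and 1 rose, and 12 response genes fell and 1 rose, against 11.9% of all genes falling and 8.52% rising. Here PEA15 (−3.51), HRAS (−1.43), MAP2K1 (−1.24), SPRY4 (−3.58), ETV4 (−3.05) and DUSP6 (−2.82) fell, and KSR1 (1.60), a scaffold of the cascade, and EGR1 (2.54) rose. PEA15 encodes an ERK-binding protein.

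CD93 is 1 of 4 group XIV lectins, with THBD (thrombomodulin), CLEC14A and CD248 (endosialin). It made up 42.2% and 46.0% of their summed TPM in WT HE and 37.3% and 51.2% in GATA2-/- HE. In HPC its share was 22.1% and 19.5% in WT and 42.2% and 33.5% in GATA2-/-. THBD had a TPM of 16.4 and 6.15 in WT HPC and 21.1 and 15.0 in GATA2-/- HPC, which overlapped (difference 0.75, standard error 0.39, adjusted p = 0.622). CLEC14A had 2.37 and 0.34 in WT HPC and 1.52 and 2.46 in GATA2-/- HPC, and CD248 had 15.4 and 6.44 against 7.96 and 6.99. Like CD93, these 3 relatives were lower in WT HPC replicate 2 than in replicate 1. Of the family and its partners (11 genes), 9 fell from HE to HPC and 1 rose, against 11.9% and 8.52% of all genes, with a list median of −1.45 against 0.01. CLEC14A fell by 3.97, THBD by 2.79, CD248 by 1.45 and MMRN2, a matrix protein of vessels that binds CD93, by 2.82 on the log2 scale. MMRN1, a related protein of platelets and endothelium, was the gene that rose (1.63). From GATA2-/- hESC to GATA2-/- HE, 8 of the 11 rose, against 13.9% of all genes, with THBD (6.65), MMRN2 (6.62) and MMRN1 (5.11) next to CD93, and DAG1 (dystroglycan) fell. None of the 11, CD93 included, passed the threshold by genotype in HE or in HPC.

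No gene beside CKB, RPS6KA2 or CD93 passed the threshold by genotype. The 3 nearest protein-coding genes on each side gave 18 neighbours, of which 16 were in the files and 13 were tested. None of the 13 did so in HE or HPC, and their HPC differences ran from −0.47 to 0.75. Beside CKB, TRMT61A, 6.4 kb away, differed by −0.24 (standard error 0.27), MARK3 by −0.12, BAG5 by −0.26, KLC1 by 0.06 and EIF5 by 0.04. Beside RPS6KA2, RNASET2 differed by −0.45, SFT2D1 by −0.47, MPC1 by 0.38 and CEP43 by 0.33. PRR18 was not tested. Beside CD93 the nearest gene on 1 side was its own relative THBD, 29.7 kb away. It had the highest of the 13 HPC differences, at 0.75. NXT1, GZF1 and NAPB, on the other side, lay at −0.09, −0.34 and 0.27, and FOXA2 and SSTR4 were not tested.

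RPS6KA2 contains other annotated genes within its span. RAMACL, on the same strand, had a TPM of 9.81 and 3.90 in WT HPC and 12.3 and 2.15 in GATA2-/- HPC, so the genotypes overlapped. RPS6KA2-IT1 was at 3.82 or less in each library, and RPS6KA2-AS1, on the opposite strand, is listed at 0 in all 10. ENSG00000249141, a protein-coding gene on the same strand, was at 3.59 in GATA2-/- HPC replicate 2 and at 0 in each other library. The kit does not mark strand, so reads of overlapping genes cannot be told apart by strand. No annotated gene overlapped CKB or CD93.

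**Figure D2:**
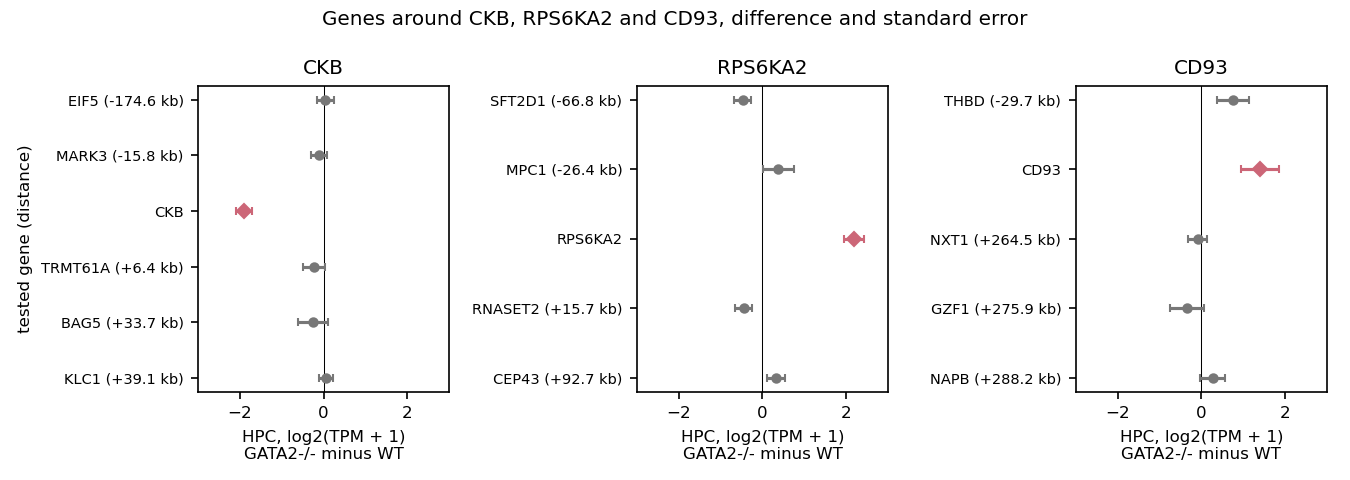
HPC difference of log2(TPM + 1), GATA2-/- minus WT, with its standard error, for CKB, RPS6KA2 and CD93 (red diamonds) and the tested genes among the 3 nearest protein-coding genes on each side (grey circles), in order of position with the distance in kb. The neighbours lie between −0.47 and 0.75 while CKB lies at −1.91, RPS6KA2 at 2.20 and CD93 at 1.40.

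Over the 10 libraries the log2(TPM + 1) of CKB ran opposite to that of RPS6KA2 (Pearson r = −0.87) and CD93 (r = −0.80), and RPS6KA2 and CD93 had r = 0.67. These are descriptions over 10 libraries in 5 groups, so they mostly follow the group means, and the choice of genes on the HPC difference is part of them. Among the 9427 tested genes that averaged a TPM of 10 or more, CKB was most like MRPL4 (0.97), CCDC94 (0.93), FKBP1B (0.92), FDX1L (0.92) and MRPS15 (0.92), of which MRPL4 and MRPS15 encode mitochondrial ribosomal proteins. FKBP1B came nearest to CKB in size, with an HPC difference of −1.19. RPS6KA2 was most like SPDL1 (0.97), RAPGEF2 (0.95), MLLT4 (0.95), MPDZ (0.94) and TSPAN13 (0.94), whose HPC differences ran from 0.82 to 1.24. CD93 was most like AFAP1L1 (0.995), PTPRM (0.99), SNRK (0.99), TFPI (0.99) and IFI16 (0.99). The 5 genes nearest to CD93 were, like it, low in hESC and high in HE. Their HPC differences ran from 0.28 for SNRK to 1.43 for IFI16, and none of the 15 genes passed the threshold by genotype.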

How the data were processed

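RNA-Seq values of 10 libraries in 5 groups of 2 were analysed, grouped by the sample labels. The authors mapped short single-end reads from TruSeq libraries to hg19 with Bowtie, and the submitters' processing notes also name RSEM. The deposited values are TPM per gene, so read depth is unknown. From these, log2(TPM + 1) was fitted in limma 3.58.1 under R 4.3.3 for genes that reached a TPM of 1 in 2 or more libraries (eBayes with trend, 1 fit over all libraries, Benjamini-Hochberg adjustment over 21543 genes, threshold 0.05, two-sided). The study's own Cuffdiff test needs alignments and was not run. The procedure was tested on simulated data. Figures and summaries used Python 3.11.15, pandas 2.3.3, numpy 2.4.6 and matplotlib 3.10.9.

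CKB, RPS6KA2 and CD93 and all gene lists were chosen with earlier results of these data known. Named genes were these 3, GATA2, their close relatives, list genes past the threshold (the 4 with the largest difference where more passed), the 3 nearest protein-coding genes on each side and the 5 genes of highest correlation; marker lists are given mainly by counts and summed TPM. Where 2 genes share a symbol, the one with the higher mean TPM was used. The results of 1 further gene list are not reported here. Positions come from GENCODE v44 lifted to GRCh37 (95.0% of gene IDs matched) and promoter windows from RefSeq on GRCh38.p14. Alternatives were a pseudocount of 0.1, no filter, a fit on the compared libraries alone, eBayes without trend, a replicate block, quantile normalization, each library left out, and removal of mitochondrial genes, which was added after seeing the data.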

Additional observations from a re-analysis of the deposited data

How the results depend on the processing

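CKB, RPS6KA2 and CD93 kept their direction and their side of the threshold in the 3 tested comparisons under all 17 alternatives, except that the HE difference of CD93, 0.16, turned to −0.10 without GATA2-/- HE replicate 2 (−0.10 to 0.42 with 1 library left out). The adjusted p for GATA2-/- HE against hESC stayed at or below 0.00863 for CKB, 0.0203 for RPS6KA2 and 0.0109 for CD93, and for HPC against HE at or below 0.00191, 0.00119 and 0.00244. In HPC by genotype, leaving out 1 library gave −2.17 to −1.66 for CKB, 1.96 to 2.43 for RPS6KA2 and 0.72 to 2.09 for CD93, and a pseudocount of 0.1 gave 2.50 for RPS6KA2. Counts of genes called by genotype were unstable. In HE the count of 4 became 13 with no filter, 0 with only the libraries of the comparison, 12 without trend, and 0 to 1 with 1 library left out. In HPC the count of 13 became 6 with a pseudocount of 0.1, 0 with only the libraries of the comparison, 20 without trend, and 0 to 14 with 1 library left out. For GATA2-/- HE against hESC 6462 genes became 4075 to 6478 with 1 library left out, the lowest without hESC replicate 1. The cause of these shifts was not tested. Where a library is left out, the remaining one is assumed to vary like the other groups.

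The replicate block gave 2 genes in HE and 3 in HPC by genotype and changed no call of CKB, RPS6KA2 or CD93 in the tested comparisons. Replicate numbers were not taken as pairs, since deviations of same-numbered libraries correlated at −0.01 to 0.12 across groups. With 2 libraries a group and no read counts, small differences such as those of RPS6KA2 and CD93 in HE could not be resolved.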
